A study of Desmophyllum pertusum with 36 samples.

Results

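Of the 75743 transcripts counted in Lophelia pertusa polyps, 137 stood at their highest at week 2, lower at week 4.5 and lowest at week 8.5 in nearly every colony and at both pH levels. They were chosen by that shape, that is, by their levels at the 3 weeks. Counts were expressed as CPM, the usual scaling of a count by its library total, and as log2(CPM + 0.5). A transcript qualified with a mean of at least 1 CPM, outside the 100 most abundant, and without the same sign of the pH difference in all 9 pairs of a colony and a week, which left 41428 transcripts open to the choice. It then had to be lower at each of the 2 steps in at least 5 of the 6 series (a series is 1 colony at 1 pH over the 3 weeks) and lower at week 8.5 than at week 2 in all 6. The limit of 150 transcripts was not reached, so all 137 were kept, 0.331% of those open. The mirror of the rule, for rising levels, was met by 88 transcripts, 0.212%.

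Fragments of 3 genetically distinct colonies (1, 3 and 4) stood at pH 7.6 or at pH 7.9 over 4 months, and polyps were taken for RNA at weeks 2, 4.5 and 8.5. The 18 libraries are 1 for each colony, pH and week, each sequenced in 2 lanes that were summed here. Each colony is 1 genotype present at both pH levels, so the 3 libraries of a pH and week differ in colony, and the 3 weeks of a series are repeated samples of 1 colony. The labels do not say whether fragments stood in separate tanks, so the p-values measure the spread between these libraries only. The time points are numbered in the labels and were matched to the weeks in order.

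Lophelia pertusa, a stony coral that also goes by the name Desmophyllum pertusum, builds reefs in cold, deep water without light and without the symbiotic algae of tropical reef corals. It lays down an aragonite skeleton from a fluid beneath its tissue whose pH the animal raises by pumping ions, a step that costs more energy as seawater pH declines. Transcript levels in corals also shift over weeks as animals settle into aquaria. In the table used here the transcripts carry numbers only, so neither functions nor cell types could be assigned, and the polyp label could not be checked against marker genes.

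Library totals ran from 18042191 to 25651213 counts. By similarity the libraries were divided into 3 sets of 6, 5 and 7, called A, B and C, which hold mainly colony 1, colony 3 and colony 4. The number of sets was fixed at 3, the number of colonies, and was not found from the data. Of the 18 libraries, 5 lay outside the main set of their labelled colony: colony 1 at pH 7.9 in weeks 4.5 and 8.5, which lay in set B, and colony 3 at pH 7.9, which lay in set C at week 2 and in set A at weeks 4.5 and 8.5. These series change set between weeks 2 and 4.5, so week and set cannot be told apart within them. The share of a library's counts from lane 1 was 31.9% to 81.8% at week 2. It was 49.97% to 50.16% at week 4.5 and 50.17% to 50.30% at week 8.5. The shares of week 2 lay on both sides of those of the later weeks. They were 31.9% in colony 1 at pH 7.9, 45.5% and 45.6% in colony 3, and 51.6% to 81.8% in the other series. Each series has 1 library for each week, so lane share and week cannot be told apart within a series. Whether sequencing has a part in the differences between weeks was not tested. Between lanes of 1 library, chi-square per degree of freedom, near 1 under sampling noise, was 1.02 to 1.31 at week 2. It was 0.986 to 1.01 at week 4.5 and 0.989 to 1.01 at week 8.5. The value of 1.31 was that of colony 4 at pH 7.6, whose lanes at week 2 thus differed beyond sampling noise. Single transcripts differed between lanes in 3 libraries of week 2, with 5 to 13 in each.

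As a group, the falling transcripts made up 0.572% to 0.645% of all counts in the 6 libraries of week 2, 0.372% to 0.541% at week 4.5 and 0.272% to 0.342% at week 8.5. Their median level was 13.6 to 17.3 CPM at week 2, 9.36 to 15.7 CPM at week 4.5 and 5.10 to 7.61 CPM at week 8.5. The 6 libraries of week 8.5 thus lay below all 6 of week 2 on both measures, while weeks 2 and 4.5 overlapped in the median. Over the same weeks the median of all open transcripts stayed between 2.38 and 2.84 on the log2 scale. These values describe what the rule selected and are no test of it. In whole polyps, fewer cells of a type and less RNA per cell cannot be told apart.

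**Figure D1:**
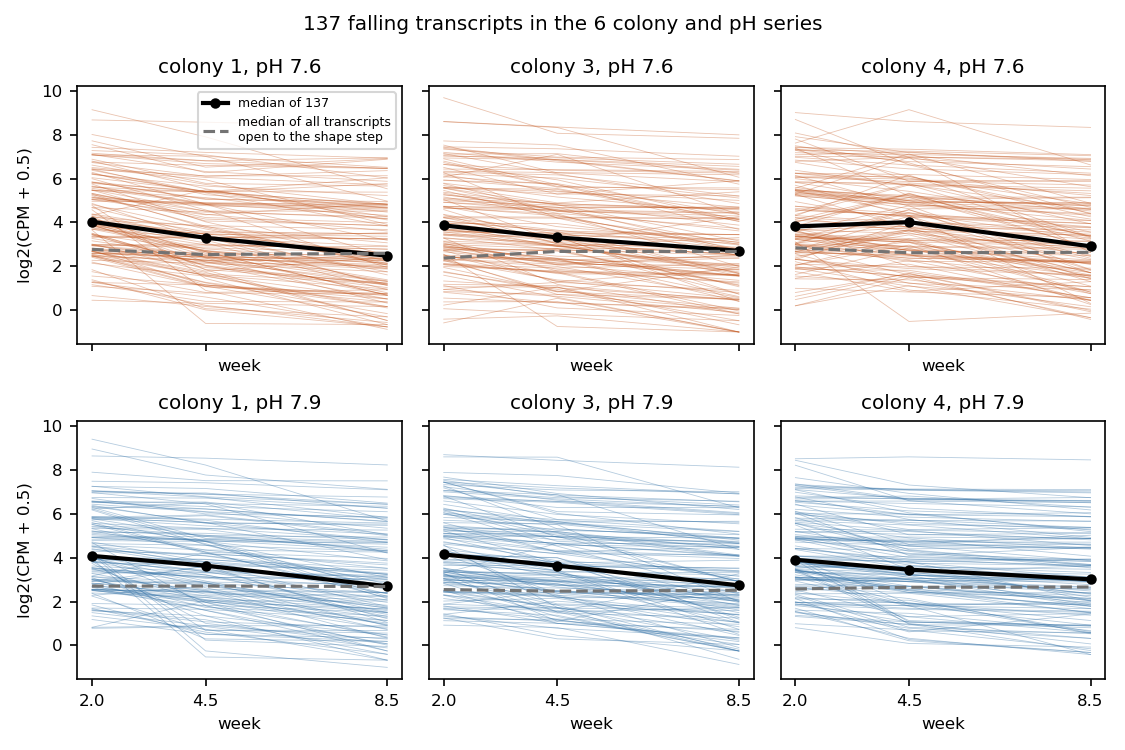
Level of each of the 137 falling transcripts (thin lines) by week, as log2(CPM + 0.5), with 1 panel for each colony and pH, pH 7.6 in the upper row. The thick line, the median of the 137, declines in every panel except between weeks 2 and 4.5 in colony 4 at pH 7.6, while the dashed line, the median of the 41428 open transcripts, lies between 2.38 and 2.84.

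The size of the difference varied widely. The mean of week 8.5 minus week 2 over the 6 series ran from -3.42 to -0.27 on the log2 scale, a level 10.7-fold to 1.21-fold lower at week 8.5, with a median of -1.18 or 2.27-fold. At week 8.5, 78 transcripts were at least 2-fold lower, 21 at least 4-fold and 4 at least 8-fold. Just outside the rule, 351 transcripts were lower at both steps in 4 series and lower at week 8.5 in all 6, with mean differences from -4.33 to -0.22 and a median of -1.04. The near misses therefore span the same sizes as the members, and what parts them is the regularity of the steps.

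Only 11 of the 137 were lower at both steps in all 6 series; the other 126 missed a step in 1 series. The 11 had mean differences from -2.32 to -0.40, with a median of -0.86. The largest of these was in Transcript_6973, named after its values were seen. At pH 7.6 it had 259, 129 and 30.97 CPM at weeks 2, 4.5 and 8.5 in colony 1, 829, 269 and 229 CPM in colony 3, and 416, 98.98 and 25.3 CPM in colony 4. At pH 7.9 it had 501, 220 and 139 CPM in colony 1, 238, 216 and 124 CPM in colony 3, and 299, 96.97 and 63.9 CPM in colony 4. Every series declined, yet levels differed so much between colonies that weeks 2 and 8.5 came close to each other: the lowest library of week 2 stood at 238 CPM and the highest of week 8.5 at 229 CPM.

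The median transcript had covered 43.1% of its total log2 difference by week 4.5, with a range of 8.70% to 96.4%. The larger step was the first in 60 transcripts and the second in 77. The first interval lasts 2.5 weeks and the second 4 weeks, and per week the median change was -0.17 in the first and -0.13 in the second, the first being faster in 81 of the 137. Single transcripts thus ranged from an almost complete first step to an almost complete second one. In 80 of the 137 transcripts all 6 libraries of week 8.5 lay below all 6 of week 2, a pattern that 1.12% of the open transcripts showed. All 6 libraries of week 4.5 lay below those of week 2 in 8 transcripts, against 0.608% of the open transcripts, and all 6 of week 8.5 below those of week 4.5 in 25, against 0.548%.

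**Figure D2:**
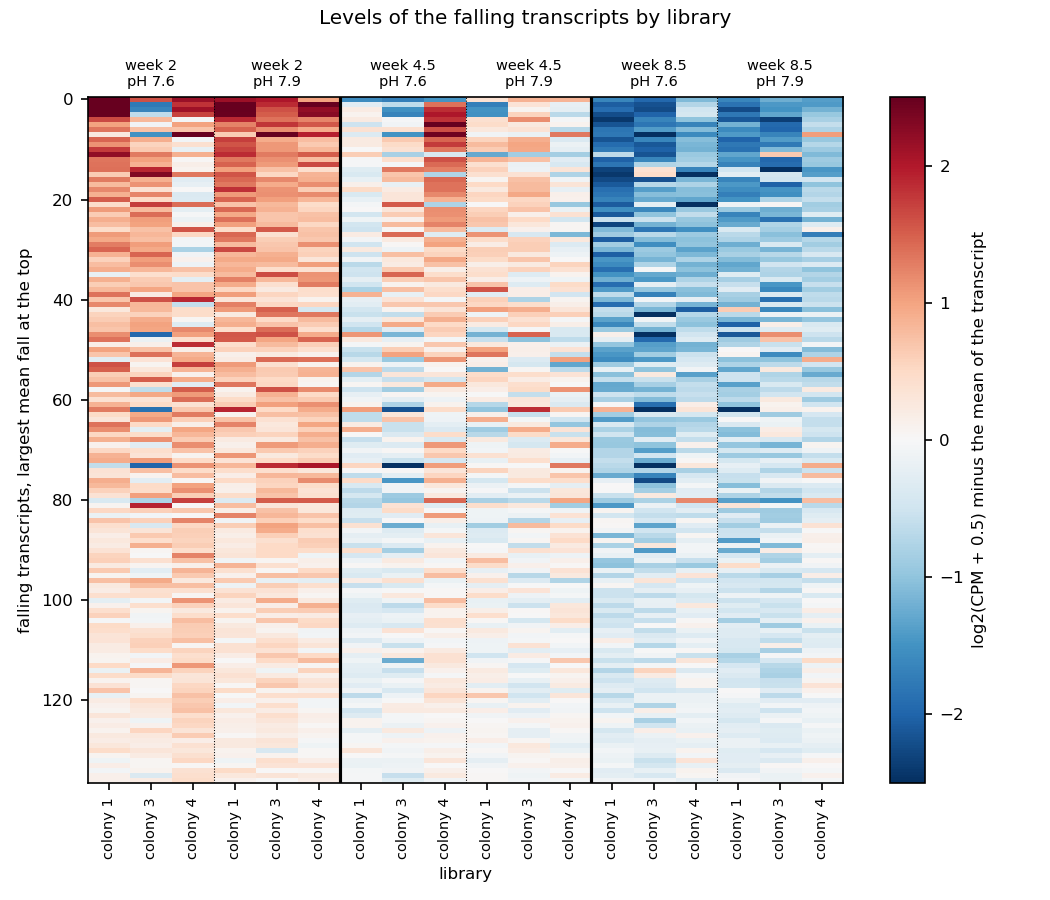
Level of the 137 falling transcripts (rows, largest mean difference at the top) in the 18 libraries (columns, by week, with pH 7.6 left of pH 7.9), as log2(CPM + 0.5) minus the mean of the transcript. Red is above and blue below the mean, with colours ending at 2.5 in either direction. Week 2 is mostly red and week 8.5 mostly blue, and in the upper rows the colony 4 library of week 4.5 at pH 7.6 is red where the other 5 of that week are paler or blue.

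The 2 transcripts with the largest mean differences were low in abundance and close to 0 by week 8.5. At pH 7.6 Transcript_5943 had 12.1, 0.156 and 0.132 CPM at weeks 2, 4.5 and 8.5 in colony 1, 5.37, 0.0953 and 0 CPM in colony 3, and 8.16, 0.199 and 0.409 CPM in colony 4. At pH 7.9 it had 8.04, 2.05 and 0.128 CPM in colony 1, 7.39, 3.07 and 0.339 CPM in colony 3, and 3.40, 3.02 and 0.250 CPM in colony 4. Weeks 2 and 8.5 did not overlap, and at week 4.5 the 3 libraries at pH 7.6 had already reached the level of week 8.5 while the 3 at pH 7.9 had not. Its mean difference was -3.42.

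Transcript_55405 had 23.4, 1.36 and 0.0440 CPM at weeks 2, 4.5 and 8.5 in colony 1 at pH 7.6, 0.168, 0.953 and 0 CPM in colony 3, and 7.46, 5.33 and 0.858 CPM in colony 4. At pH 7.9 it had 15.1, 0.195 and 0.128 CPM in colony 1, 7.78, 2.39 and 0.339 CPM in colony 3, and 14.2, 1.46 and 0.350 CPM in colony 4. It is nearly missing from every library of set B, where it reached at most 0.953 CPM against 23.4 CPM in set A and 14.2 CPM in set C. The large step of colony 1 at pH 7.9 between weeks 2 and 4.5 coincides with that series' move into set B, and the part of the set in that step cannot be told apart from week. With it, only Transcript_18702 stayed under 1 CPM in all 5 libraries of set B while reaching 5 CPM or more in both other sets, a limit chosen after the values were seen.

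The most abundant of the group, Transcript_6693, showed one of the smaller differences. At pH 7.6 it had 410, 382 and 334 CPM at weeks 2, 4.5 and 8.5 in colony 1, 391, 328 and 256 CPM in colony 3, and 518, 390 and 324 CPM in colony 4. At pH 7.9 it had 402, 375 and 302 CPM in colony 1, 419, 350 and 281 CPM in colony 3, and 368, 390 and 355 CPM in colony 4, the series in which the first step is missing. Its mean difference of -0.44, a level 1.35-fold lower at week 8.5, is carried by 5804 to 10407 counts in each library, and all 6 libraries of week 8.5 stayed below all 6 of week 2.

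Transcript_1464, second in abundance, combined a high level with a large difference. At pH 7.6 it had 567, 240 and 46.0 CPM at weeks 2, 4.5 and 8.5 in colony 1, 388, 323 and 66.5 CPM in colony 3, and 197, 568 and 98.4 CPM in colony 4. At pH 7.9 it had 684, 301 and 50.9 CPM in colony 1, 390, 387 and 77.5 CPM in colony 3, and 350, 160 and 107 CPM in colony 4. All 6 libraries of week 8.5 lay below every earlier library, with a mean difference of -2.49, or 5.60-fold lower. By week 4.5 it had covered 15.4% of that difference, and colony 4 at pH 7.6 was higher at week 4.5 than at week 2.

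**Figure D3:**
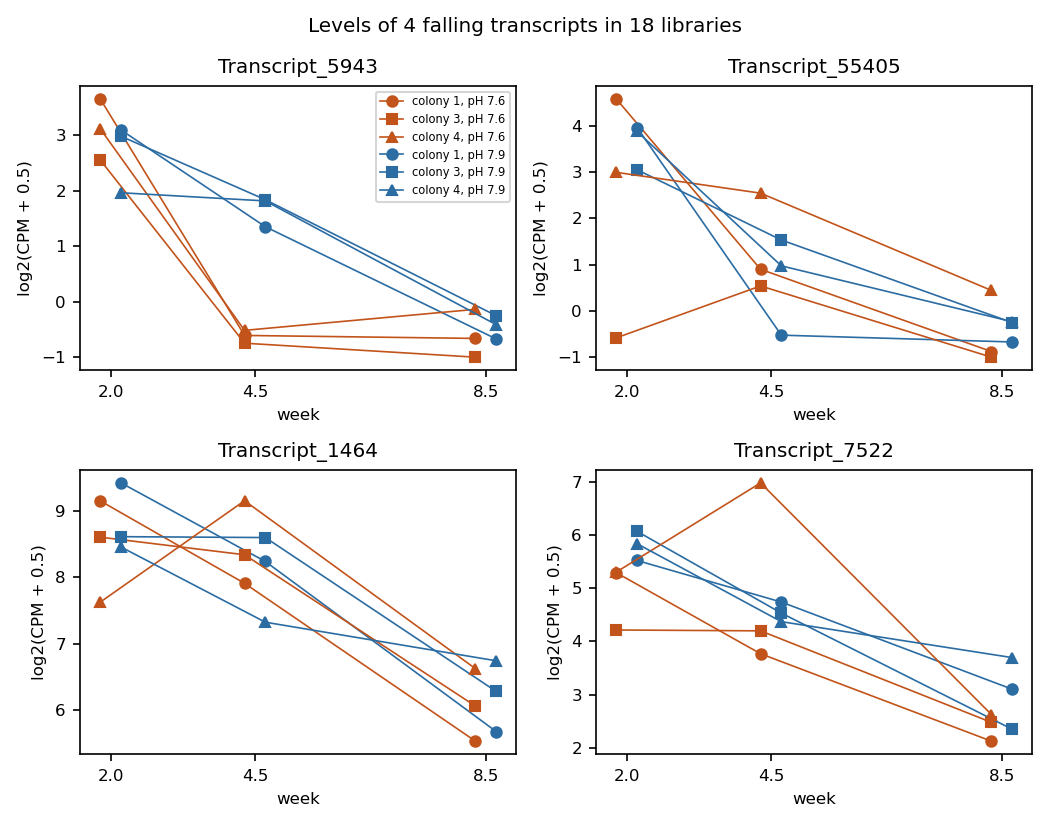
Levels of 4 falling transcripts in the 18 libraries as log2(CPM + 0.5) against week. Lines join the libraries of 1 colony at 1 pH, with orange for pH 7.6, blue for pH 7.9 and a marker shape for each colony. Transcript_5943 is near its lowest level at week 4.5 at pH 7.6 and not at pH 7.9, and in Transcript_1464 and Transcript_7522 the colony 4 series at pH 7.6 peaks at week 4.5.

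The series of colony 4 at pH 7.6 missed a step most often, in 41 transcripts, against 25 in colony 4 at pH 7.9, 21 in colony 3 at pH 7.6, 15 in colony 1 at pH 7.6, 13 in colony 1 at pH 7.9 and 11 in colony 3 at pH 7.9. In 37 of these 41 the missing step was the first: week 4.5 was not lower than week 2. The median of week 4.5 minus week 2 over the 37 was 1.17 in that series, with a highest value of 1.86, and -1.21 to -0.26 in the other 5 series. The 37 include 15 of the 21 transcripts that were at least 4-fold lower at week 8.5, and their median difference of week 8.5 minus week 2 was -1.84, against -0.85 in the other 100.

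The 37 were picked by these 2 libraries, so a low week 2 and a high week 4.5 there follow from the choice. The rule asks for both steps in at least 5 of the 6 series. Week 4.5 below week 2 in the other series of the 37 therefore follows as well. The labels of both libraries were kept as given, and whether they carry their own weeks was not tested. Over all 137, the week 4.5 library of this series was the highest of its week in 60 transcripts, 43.8%, against 14.8% of the open transcripts. Of these 60, 31 were among the 37 picked. Its week 2 library was the highest of its week in 38 transcripts, 27.7% against 29.0%, and the lowest in 37, 27.0% against 12.4%. Of those it was lowest in, 30 were among the 37 picked. The rule used the levels of every library, so these shares and those that follow describe the members and are no test. Other libraries also stood apart: colony 4 at pH 7.9 was the highest of week 8.5 in 47 transcripts, 34.3% against 17.98%, and colony 1 at pH 7.6 was the lowest of week 4.5 in 49, 35.8% against 20.3%, and the lowest of week 8.5 in 37, 27.0% against 11.9%. Transcript_7522, chosen after its values were seen, shows the pattern with 39.0, 125 and 5.68 CPM at weeks 2, 4.5 and 8.5 in colony 4 at pH 7.6, against 56.6, 20.2 and 12.5 CPM in colony 4 at pH 7.9.

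The rule used the contrasts between weeks, and the counts of calls are given for reference only. With edgeR's quasi-likelihood test and Benjamini-Hochberg adjustment over all 56223 transcripts tested, 73 of the 137 were called lower at week 8.5 than at week 2, where 0.854% of all tested and 1.04% of the open transcripts were called lower. At week 4.5 against week 2, 1 was called lower (Transcript_5943), with 0.0374% of all tested and 0.041% of the open transcripts. At week 8.5 against week 4.5, 27 were called lower, with 0.576% and 0.714%. These counts changed with the libraries used. With 1 colony left out the count for week 8.5 against week 2 was 0 to 21 in place of 73. Without the 5 libraries outside their colony's set it was 20, where 0.488% of the open transcripts were called. Such settings hold fewer libraries, and the part of any single colony in the calls was not tested. For week 8.5 against week 4.5 no colony could be left out without the count reaching 0.

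The pH comparison was not used to choose the members, apart from the removal of transcripts with 1 sign in all 9 pairs. Fold changes are pH 7.6 over pH 7.9. Over all weeks, 0 of the 137 were called by edgeR's quasi-likelihood test, where 0.141% of all tested and 0.0845% of the open transcripts were called. At an unadjusted p below 0.05 there were 13, or 9.49%, close to the 9.66% of the open transcripts, and DESeq2 called 5, where it called 1.67% of the open transcripts. The log2 fold changes had a median of -0.08 in the group and -0.02 in the open transcripts. In the group 94 were negative and 43 positive, counts that only describe it, with no share of the open transcripts beside them. Taking 2 standard errors on either side, the intervals of the 137 together ran from -2.61 to 1.89, so that differences of that size in single transcripts cannot be set aside.

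Within weeks the counts of calls were 0 as well with edgeR's test. At week 2, 0.0% of all tested transcripts were called, 6 of the 137 (4.38%) had an unadjusted p below 0.05, against 5.52% of the open transcripts, and DESeq2 called 0 of the 137 and 0.138% of the open transcripts. At week 4.5, 0.0% were called, 3 (2.19%) had an unadjusted p below 0.05, against 2.06% of the open transcripts, and DESeq2 called 1 of the 137 and 0.0193% of the open transcripts. At week 8.5, 0.117% of all tested and 0.099% of the open transcripts were called, 12 of the 137 had an unadjusted p below 0.05, which is 8.76% against 9.35% of the open transcripts, and DESeq2 called 2 of the 137 and 1.65% of the open transcripts. Without the 5 libraries outside their colony's set edgeR called 0 in each of these 4 comparisons.

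The fitted log2 fold changes were negative in 79 and positive in 58 of the 137 at week 2, in 65 and 72 at week 4.5, and in 88 and 49 at week 8.5. Their medians were -0.10, 0.02 and -0.12 in the group, against 0.00, -0.04 and -0.04 in the open transcripts. No share of the open transcripts stands beside these sign counts, so they cannot be read as a trait of the members. At week 8.5, 31 of the 137 were lower at pH 7.6 in all 3 colonies and 15 were higher in all 3, where 11.8% and 14.3% of the open transcripts were. As shares of the group these are 22.6% and 10.9%. At week 4.5 the counts were 17 lower and 6 higher, with 10.1% and 11.6% of the open transcripts, and at week 2 they were 22 and 20, with 11.9% and 13.8%. At week 8.5, in 12 transcripts all 3 libraries at pH 7.6 lay below all 3 at pH 7.9, and in 3 they lay above, where 4.85% and 7.39% of the open transcripts did. The counts were 5 and 4 at week 4.5, with 3.46% and 4.76% of the open transcripts, and 5 and 10 at week 2, with 2.98% and 3.45%. The median difference of pH 7.6 minus pH 7.9 at week 8.5 was -0.08 in the group and 0.00 in the open transcripts.

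Transcript_20581 had the lowest p for pH over all weeks and at week 8.5. At week 8.5 it had 64.7, 76.1 and 69.8 CPM in colonies 1, 3 and 4 at pH 7.6, against 182, 121 and 125 CPM at pH 7.9. The pH levels did not overlap at that week, whereas at week 2 it had 155, 139 and 145 CPM at pH 7.6, against 240, 176 and 143 CPM at pH 7.9, which overlapped. At week 8.5 the log2 fold change was -1.03 with a standard error (SE) of 0.20 and an adjusted p of 0.0845 by edgeR's quasi-likelihood test. Over all weeks the log2 fold change was -0.52 (SE 0.12, adjusted p = 0.126 with edgeR). Neither passed the threshold of 0.05, while with DESeq2 both did, with adjusted p of 6.71e-05 at week 8.5 and 0.000928 over all weeks, as they did in edgeR with library set in place of colony, with 0.0158 and 0.0219. Without the 5 libraries outside their colony's set the edgeR values at week 8.5 were -0.94 with an adjusted p of 0.971.

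Transcript_5943 had the lowest p at week 4.5 and for the difference of the pH effect between weeks. Its counts at week 4.5 were 4, 2 and 5 in colonies 1, 3 and 4 at pH 7.6, against 42, 63 and 64 at pH 7.9. The groups did not overlap, and the log2 fold change was -4.12 (SE 0.75), with an adjusted p of 0.967 in edgeR and 7.64e-05 in DESeq2. At week 2 both pH levels overlapped, with counts of 223, 128 and 164 at pH 7.6 and of 145, 153 and 73 at pH 7.9. The difference of the pH effect between weeks had an adjusted p of 1.00 in edgeR and 0.0112 in DESeq2, the only transcript of the 137 that DESeq2 called in that comparison, with 0.07% of the open transcripts. In the same comparison edgeR called 0 of the 137 and 0.0% of all tested, and 6 of the 137 (4.38%) had an unadjusted p below 0.05, against 3.39% of the open transcripts.

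At week 2 the lowest p belonged to Transcript_47193. It had 19.7, 7.21 and 66.6 CPM in colonies 1, 3 and 4 at pH 7.6, against 54.6, 113 and 127 CPM at pH 7.9. It was lower at pH 7.6 in each colony, although the libraries of the 2 pH levels overlapped, because colony 4 at pH 7.6 exceeded colony 1 at pH 7.9. The log2 fold change was -2.40 (SE 0.74, edgeR adjusted p = 0.902), and -0.91 without the 5 libraries outside their colony's set, among which is the colony 3 library at pH 7.9.

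How far the transcripts went down was compared between the pH levels, which the rule left free. Week 8.5 minus week 2 had a median of -1.28 at pH 7.6 and -1.06 at pH 7.9, where the open transcripts had 0.02 at both. The median of the difference within each transcript was smaller, -0.05 against -0.03 in the open transcripts. The difference was larger at pH 7.6 in 76 of the 137, or 55.5%, close to the 52.9% of the open transcripts with a lower value at pH 7.6. With edgeR, 0 of the 137 differed in this between pH levels, as did 0.0% of all tested. At an unadjusted p below 0.05 there were 5, or 3.65%, against 2.79% of the open transcripts, and DESeq2 called 0 of the 137 and 0.0507% of the open transcripts.

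The lowest p was that of Transcript_2448, which at pH 7.6 had 87.4, 61.4 and 14.6 CPM at weeks 2, 4.5 and 8.5 in colony 1, 211, 185 and 53.3 CPM in colony 3, and 167, 36.7 and 9.73 CPM in colony 4. At pH 7.9 it had 104, 63.8 and 58.0 CPM in colony 1, 112, 94.8 and 64.5 CPM in colony 3, and 87.0, 32.7 and 34.3 CPM in colony 4. Week 8.5 was lower at pH 7.6 in every colony. The difference of the 2 declines was -1.86 on the log2 scale (SE 0.56), with an adjusted p of 1.00 in edgeR's quasi-likelihood test.

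**Figure D4:**
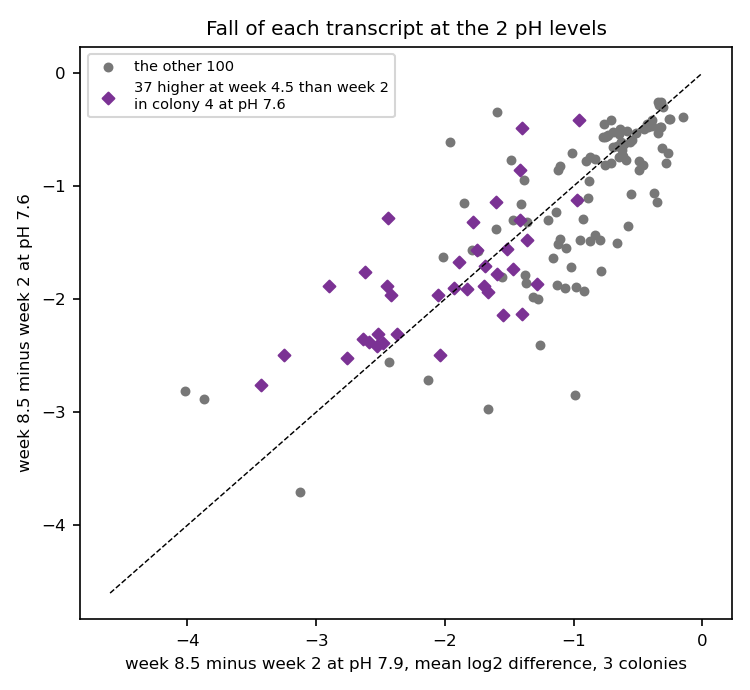
Week 8.5 minus week 2 at pH 7.6 (vertical axis) against the same at pH 7.9 (horizontal axis) for the 137 falling transcripts, each value a mean log2 difference over 3 colonies. The dashed line marks equal differences, and 76 of the 137 points lie below it, with a larger decline at pH 7.6. Diamonds are the 37 transcripts that were not lower at week 4.5 than at week 2 in colony 4 at pH 7.6, which lie mostly among the larger declines.

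The levels of the colonies were also left free by the rule. Of the 137, 8 were higher in colony 4 than in colony 1 and 0 were lower by edgeR's quasi-likelihood test, 5.84% in all, where 11.9% of all tested and 12.4% of the open transcripts were called, the open ones 5.55% higher and 6.81% lower. Between colonies 4 and 3, 2 were higher and 1 was lower in colony 4, 2.19% in all, where 4.09% and 4.43% were called, the open ones 1.5% higher and 2.92% lower. Between colonies 3 and 1, 0 were called, as were 0.0% of all tested, with 7 (5.11%) at an unadjusted p below 0.05 against 6.78% of the open transcripts, and DESeq2 called 0 of the 137 and 0.0% of the open transcripts. Without the 5 libraries outside their colony's set the counts became 9 for colony 4 against 1, 15 for colony 4 against 3 and 19 for colony 3 against 1, where 18.9%, 14.9% and 16.7% of the open transcripts were called. Without the week 4.5 library of colony 4 at pH 7.6 they were 3 for colony 4 against 1 and 0 for colony 4 against 3, where 5.4% and 0.217% of the open transcripts were called. Without colony 3 the count for colony 4 against 1 was 17, where 25.4% were called.

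Transcript_2957 had the largest fold change among the calls between colonies. At weeks 2, 4.5 and 8.5 it had 23.5, 19.4 and 16.5 CPM in colony 4 at pH 7.6 and 20.99, 14.2 and 12.2 CPM in colony 4 at pH 7.9. In colony 3 it had 3.82, 3.29 and 3.79 CPM at pH 7.6 and 20.7, 4.10 and 2.13 CPM at pH 7.9, and in colony 1 5.20, 4.05 and 3.47 CPM at pH 7.6 and 5.32, 3.71 and 2.39 CPM at pH 7.9. Colonies 4 and 1 did not overlap, and colony 3 reached the level of colony 4 in 1 library, that of week 2 at pH 7.9, which lay in set C with colony 4. The log2 fold change was 2.14 over colony 1 (SE 0.31, edgeR adjusted p = 0.00341) and 1.74 over colony 3 (SE 0.31, edgeR adjusted p = 0.0136), and 2.16 and 2.28 without the 5 libraries. Without the week 4.5 library of colony 4 at pH 7.6 the second call was lost, with an adjusted p of 0.0533 in edgeR.

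Transcript_37446 was higher in colony 4 than in colony 1, and Transcript_32649 higher in colony 4 than in colony 3. Transcript_37446 averaged 2.27 ± 1.37 CPM in colony 4 and 0.808 ± 0.466 CPM in colony 1 (SD, n = 6 each), a log2 fold change of 1.47 (SE 0.36, adjusted p = 0.0202 in edgeR). Transcript_32649 averaged 4.18 ± 1.42 CPM in colony 4 and 1.96 ± 1.65 CPM in colony 3 (SD, n = 6 each), a log2 fold change of 1.16 (SE 0.26, adjusted p = 0.0252 in edgeR). In both, the colony 3 library of week 2 at pH 7.9 was again near colony 4, with 4.40 and 5.22 CPM. Both calls were lost without the week 4.5 library of colony 4 at pH 7.6, with adjusted p of 0.0610 and 0.0901 in edgeR, and the second also without colony 1, with 0.0714.

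Transcript_2448 was the 1 called lower in colony 4 than in colony 3, by -1.46 (SE 0.29, edgeR adjusted p = 0.0174). It averaged 61.3 ± 57.8 CPM in colony 4 and 120 ± 64.4 CPM in colony 3 (SD, n = 6 each), and the libraries overlapped because weeks differ so much within a colony. Without the week 4.5 library of colony 4 at pH 7.6 its adjusted p was 0.0682 in edgeR. It also had the lowest p of colony 3 against colony 1, with 1.06 on the log2 scale (SE 0.29) and an adjusted p of 0.676 in edgeR, which became 1.65 with an adjusted p of 0.00479 without the 5 libraries outside their colony's set.

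**Figure D5:**
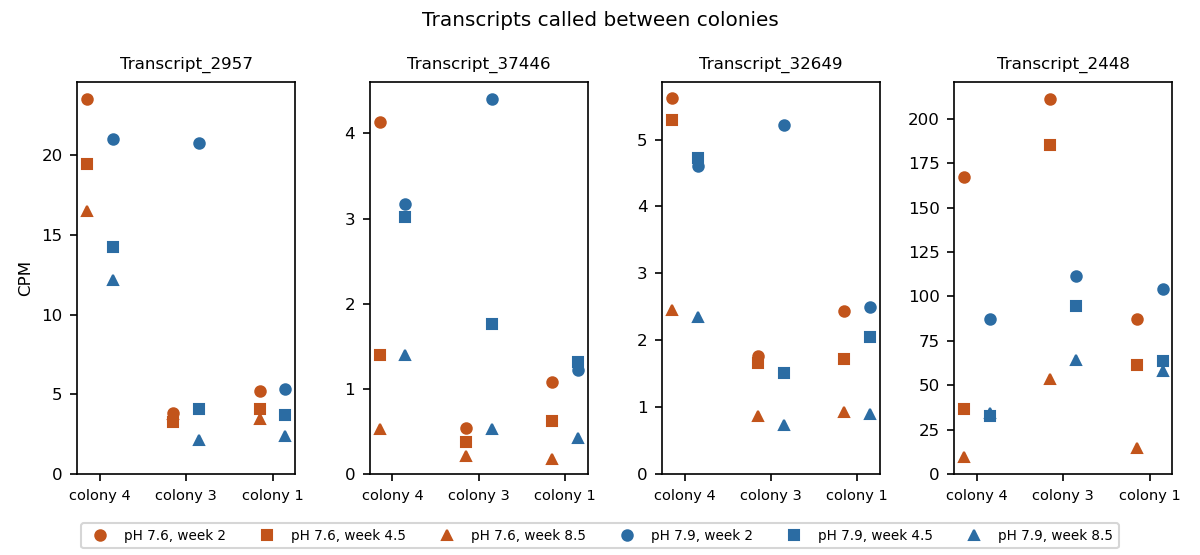
Level in CPM of the 4 named transcripts called between colonies, with 1 point for each library, colony 4 at the left and colony 1 at the right. Colours give pH and marker shapes the week. In the first 3 panels the colony 3 point of week 2 at pH 7.9 (20.7, 4.40 and 5.22 CPM) lies at the level of colony 4, apart from the other points of colony 3.

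The median of week 8.5 minus week 2 was nearest to 0 in colony 4, with -0.91 at pH 7.6 and -0.84 at pH 7.9, against -1.27 and -1.09 in colony 3 and -1.23 and -1.02 in colony 1. The difference of week 8.5 minus week 2 between colonies 4 and 3 was positive in 113 of the 137, with a median of 0.46 on the log2 scale against -0.01 in the open transcripts. Between colonies 4 and 1 it was positive in 86, with a median of 0.17 against -0.08 in the open transcripts. Between colonies 3 and 1 it was positive in 50, with a median of -0.21 against -0.08. Without a share of the open transcripts, these counts of positive values only describe the members. No transcript differed by edgeR's test over the 3 colonies together, 0 of the 137 and 0.0% of all tested, with 10 of the 137 at an unadjusted p below 0.05, or 7.30% against 8.16% of the open transcripts, and 0 by DESeq2, which called 0.558% of the open transcripts. Colony and library set are linked here, and the median decline was -1.22 over the 4 series that stay in 1 set and -1.13 over the 2 that change set. The lowest p was that of Transcript_1702 (adjusted p = 0.595 in edgeR), which at weeks 2, 4.5 and 8.5 had 4.73, 11.9 and 3.72 CPM in colony 4 at pH 7.6, against 13.0, 6.08 and 2.11 CPM in colony 1 at pH 7.6.

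The shape step set no limit on abundance, spread or level over the library sets, but it favours transcripts with regular steps. The values that follow, and the place of zeros at week 8.5, are therefore not independent of the choice and only describe the members. The mean abundance of the members had a median of 11.3 CPM, from 1.06 to 365 CPM, against 6.08 CPM in the open transcripts. Within weeks their SD over libraries had a median of 0.44 against 0.48 on the log2 scale. The range of their means over the 3 library sets exceeded 1 on the log2 scale in 22 transcripts, 16.1%, against 25.03% of the open transcripts. A count of 0 occurred in 7 of the 2466 values, in 6 transcripts (4.38%, against 2.28% of the open transcripts), all at week 8.5.

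After removal of the mean of each week, the correlation between pairs of members had a median of 0.11 across the 18 libraries, against 0.04 between open transcripts. The open transcripts compared here were every 20th of them, 2072 in all. A value above 0.8 was reached by 1.37% of the 9316 pairs of members and by 1.24% of the pairs of open transcripts, so the group did not stand out as a tightly linked module once the weeks were removed. Pairs share libraries and library sets, so these values are a description. In the numbering of the transcripts, 8 members had another member within 10 numbers.

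Which transcripts belong to the group depended on the processing. Scaling by trimmed mean of M values (TMM) selected 150 transcripts, of which 87 were among the 137, and lane 1 alone and lane 2 alone selected 118 and 133, of which 74 and 85 were. Both lanes on their own kept 51 of the 137, and 29 were kept by neither, with a median difference of -0.66. The 43 kept by both lanes and by TMM scaling had a median difference of -1.66 and include 13 of the 21 transcripts that were at least 4-fold lower at week 8.5 and 9 of the 11 that were lower at both steps in all 6 series. Of the named transcripts, Transcript_55405, Transcript_2448, Transcript_6973 and Transcript_18702 were kept in all 3 of these settings. Transcript_20581, with the lowest p for pH over all weeks, was kept in none of them, and Transcript_2957 by neither lane. Of the other named transcripts, lane 1 alone lost Transcript_5943, Transcript_1464, Transcript_47193 and Transcript_37446. Lane 2 alone lost Transcript_7522 and Transcript_32649. TMM scaling lost Transcript_1464, Transcript_47193, Transcript_6693 and Transcript_1702.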

How the data were processed

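Polyp RNA was read single-end on an Illumina HiSeq, per the labels' protocols. The authors deposited raw counts per transcript and lane; the submitters' processing notes list Trimmomatic 0.36, cutadapt 1.15, FastQC and DESeq2 without roles. No source used here gives the aligner, the counter or the transcript set. Reads shared by near-identical transcripts may have been split in ways that cannot be followed. The members and lists were chosen with earlier results of these data known.

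The 2 lanes of a library were summed. The selection used library totals, with a pseudocount of 0.5 CPM. Tests used edgeR 4.0.16 (R 4.3.3) with TMM factors of 0.825 to 1.17 on the 56223 transcripts that passed filterByExpr (minimum count 10, minimum total 15), in a model of the 6 pH-by-week means with colony added. The difference of the decline between colonies came from a model of the 9 colony-by-week means with pH added. Adjustment (Benjamini-Hochberg) ran over all transcripts tested, with a threshold of 0.05. SE is the log2 fold change over the square root of F, and intervals are 2 SE on either side. The common dispersion was 0.210. Library sets came from average linkage on Spearman's correlation. Lanes were compared by a chi-square test over transcripts with at least 50 counts.

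Transcripts were named by rule: the 2 with the largest mean difference, the 2 most abundant, and for each comparison the 2 called with the largest fold change in each direction or, where none was called, the one with the lowest p. Colony is the replicate block, since fragments of each colony stood at both pH per the labels. Deviations from the group means correlated above 0.1 in 5 of 9 same-colony pairs, from -0.405 to 0.746. Alternatives were DESeq2 1.42.0, DESeq2 size factors, no filter, no block, library set in place of colony, left-out colonies and libraries, and other settings of the selection. Selection and tests were also run on simulated counts with large planted changes and no library sets. Those runs check the code and do not bear on differences as small as many here.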

Additional observations from a re-analysis of the deposited data

Results flagged for a closer look

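The search covered the transcripts named by rule and the median of all members. In 36 groups of 6 libraries of 1 week, it looked for a library far from the other 5, and 4 groups held one. Chance gives about 1 in 20 for 6 independent values of 1 kind. These libraries differ in colony and pH, and the transcripts were partly named by those comparisons, so that rate is no yardstick here. Transcript_55405 at week 2 had 0.168 CPM in colony 3 at pH 7.6, the lowest of the 6 libraries. Transcript_20581 at week 4.5 had 184 CPM in colony 1 at pH 7.9, the highest of the 6. Transcript_47193 had 4.24 CPM at week 4.5 and 2.41 CPM at week 8.5 in colony 3 at pH 7.6, the lowest of the 6 libraries in both weeks. Of these 4 values, 3 belong to the pH 7.6 series of colony 3, whose libraries lay in set B throughout. What sets these libraries apart was not tested.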

How the results depend on the processing

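Of the 137, 87 were also selected with TMM scaling, 74 with lane 1 alone, 85 with lane 2 alone, 11 when both steps were required in all 6 series, 35 with only the series of 1 library set, and 28 to 40 with 1 colony left out. Requiring 4 series in place of 5, an alternative chosen after seeing the data like the left-out series and the left-out library that follow, kept 43. Leaving out 1 series kept 97 (colony 1, pH 7.6), 56 (colony 1, pH 7.9), 80 (colony 3, pH 7.6), 69 (colony 3, pH 7.9), 48 (colony 4, pH 7.6) and 77 (colony 4, pH 7.9). Several of these settings admit more transcripts than the limit of 150, which by itself removes members. The other pseudocounts, CPM minimums and the pH step kept 105 to 137.

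For calls of week 8.5 against week 2 (73), the count was 0 to 21 with 1 colony left out, 20 without the 5 libraries outside their colony's set and 114 with DESeq2. For week 4.5 against week 2 (1) it was 0 to 3 with 1 colony left out, 12 with library set in place of colony, 0 without the 5 libraries, 0 without the week 4.5 library of colony 4 at pH 7.6, and 13 with DESeq2. For week 8.5 against week 4.5 (27) it was 0 with any 1 colony left out, 53 with library set, 0 without the 5 libraries, 1 without the colony 4 library and 52 with DESeq2. For pH over all weeks (0) it was 2 with library set and 5 with DESeq2, at week 4.5 (0) 1 with DESeq2, at week 8.5 (0) 2 with library set and 2 with DESeq2, and for the pH effect between weeks (0) 1 with DESeq2. For colony 4 against 1 (8) it was 17 without colony 3, 3 without the colony 4 library and 14 with DESeq2. For colony 4 against 3 (3) it was 2 without colony 1, 15 without the 5 libraries, 0 without the colony 4 library and 9 with DESeq2, and for colony 3 against 1 (0) it was 19 without the 5 libraries. Beyond fewer libraries in the left-out settings, the cause was not tested. Where no share of the open transcripts is given for a setting, here or above, a count cannot be read as a trait of the members. That is the case for library set, and for DESeq2 in the comparisons of weeks and of colony 4.

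No fold change among the recomputed values of named transcripts reversed its direction in any setting run. Of 104 such values, 92 kept their side of the threshold and, where a fold change exists, their direction. The threshold was passed anew by 7 and no longer passed by 5. The tests of the pH effect between weeks and of the decline between colonies have no single direction. Without the replicate block, counts of calls stayed within 1.5 times (61 in place of 73 for week 8.5 against week 2), and Transcript_20581 at week 8.5 had a log2 fold change of -1.05 with an edgeR adjusted p of 0.0995. Library set in place of colony was not run for the comparisons of colonies, which then have no colony term. Depth limits the low-count transcripts: Transcript_5943 had 2 to 5 counts in the pH 7.6 libraries of week 4.5 and 0 in one of week 8.5.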
